A study of Mus musculus with 20 samples.

Results

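Mouse liver RNA was sequenced after 13 days of treatment with small interfering RNA (siRNA) against Eif3m, and compared with liver RNA from mice given a scrambled luciferase siRNA. The 4 libraries of this comparison, 2 per siRNA, are 4 of the 20 of the study, and were picked by their labels alone (day 13, RNA-seq). All animals were FVB/N mice of 6 to 8 weeks, an inbred strain, and both groups received their siRNA in lipid nanoparticles through the tail vein at a dose of 0.5 mg/kg, with 1 injection per 5 days. Lipid nanoparticles given this way are taken up mainly by hepatocytes, and the labels state neither the sex of the animals nor the sequence of either siRNA. The study also holds day 13 ribosome footprint libraries of the same 4 animals, and RNA and footprint libraries of other animals at day 9. Statements below are limited to the 7647 gene symbols, of 38784 in the table, whose mean over the 4 libraries was at least 5 CPM (counts scaled to a common library size).

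The protein eIF3m is a subunit of eukaryotic initiation factor 3 (eIF3), the large complex that binds the small ribosomal subunit and brings messenger RNA to it. Vertebrate messages for ribosomal proteins and elongation factors begin with a C followed by an unbroken stretch of pyrimidines, the terminal oligopyrimidine (TOP) tract, through which their translation responds to growth signals. Host genes of small nucleolar RNAs (snoRNAs), which guide modification of ribosomal RNA, often carry the same kind of start. The adult liver also makes most plasma proteins, synthesises fatty acids and cholesterol, and oxidises and conjugates drugs and steroids.

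The control libraries held 26401320 and 24311802 counts and the Eif3m libraries 19834949 and 4964912, so that the second Eif3m library was the shallowest. Values below are always given in the order control 1, control 2, Eif3m 1, Eif3m 2, as CPM scaled with edgeR's TMM factors. Levels of log2 CPM correlated across genes with r = 0.963 between the controls and 0.979 between the Eif3m libraries. The median gene differed by 0.326 on the log2 scale between the controls and by 0.228 between the Eif3m libraries. Albumin, the main secreted protein of hepatocytes, took 22, 20.2, 15.5 and 13.2% of the counts, the mark of a hepatocyte-rich tissue. The genes Mettl13 and Recql, at means of 5.001 and 4.999 CPM, lay just inside and just outside the limit of 5 CPM.

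Eif3m itself was measured at 205, 295, 17.8 and 14.7 CPM. The change was 15.2-fold (log2 change -3.93, SE 0.28, edgeR adjusted p = 3.8e-10), and both treated libraries lay far below both controls. Of the other 13 eIF3 genes, 4 rose and none fell, where 5.96% of all 7647 genes rose and 4.79% fell. Eif3e (139, 177, 271 and 288 CPM, log2 change 0.82, SE 0.24, edgeR adjusted p = 0.034) and Eif3c (218, 213, 434 and 361 CPM, log2 change 0.88, SE 0.24, edgeR adjusted p = 0.021), both subunits of the complex, rose less than 2-fold. The loosely bound subunit eIF3j is encoded by the near-identical Eif3j1 and Eif3j2, whose reads cannot be told apart with certainty, and their changes were 0.97 and 0.98 on the log2 scale. Calls of Eif3e, Eif3c, Eif3j1 and Eif3j2 were lost without Eif3m 1 (edgeR adjusted p = 0.23, 0.37, 0.21 and 0.22) and without Eif3m 2 (0.39, 0.13, 0.17 and 0.17). Eif3f and Eif3h, which sit beside eIF3m in the complex, differed by 0.50 and 0.45 (edgeR adjusted p = 0.25 and 0.29), which did not pass the test.

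Across the 7647 genes, 822 changed at an edgeR adjusted p below 0.05, which is 10.7% of them (7.1% of all 13649 genes tested). Of these, 456 (5.96%) rose, 331 by more than 2-fold, and 366 (4.79%) fell, 289 by more than 2-fold. The counts of rises and falls in the gene lists below are to be read against these shares. In all 822 both Eif3m libraries lay on the same side of both controls. Such a separation without regard to the test was found in 30.5% of the genes toward higher and in 25.8% toward lower values. The median change of all genes was 0.0263 on the log2 scale, and -0.0291 to 0.0949 with each library left out. Of all 7647 genes, 210 reached 5 CPM only through the Eif3m libraries and 298 only through the controls. Among the called genes 40 of the rises reached 5 CPM only through the Eif3m libraries, and 48 of the falls only through the controls. Of the genes described below, Gadd45a, Nox4, Arhgef2, Btbd19, Snhg5, Trp53inp1, Bcl6, Cyp2u1, Vmn2r3 and Vmn2r4 are such rises. Acot1, Acot3, Acacb, Aacs, Scd2, Slc22a7, Slco2b1, Gstt3, Mfsd2a, Fmo6, Shmt2, Tapbp and Usp18 are such falls. The number called was 1159, 1820, 392 and 255 when control 1, control 2, Eif3m 1 and Eif3m 2 were left out in turn, and with library totals in place of TMM factors the median change moved to 0.14 and rises made up 67.6% of the calls instead of 55.5%.

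**Figure D1:**
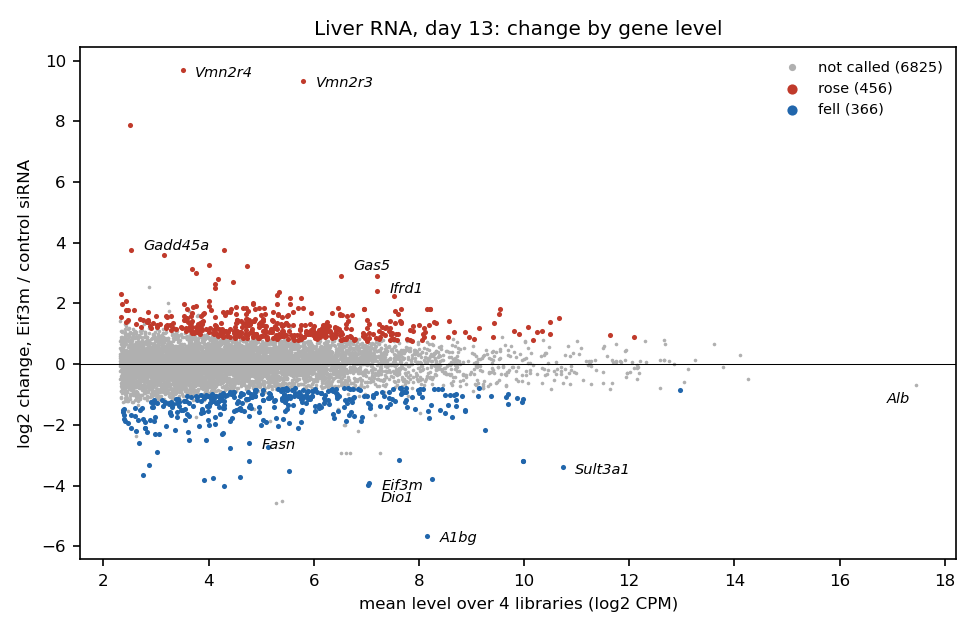
Change with Eif3m siRNA (log2, y axis) against the mean level over the 4 day 13 RNA libraries (log2 CPM, x axis), 1 point per gene of at least 5 CPM, with the 456 rises in red, the 366 falls in blue and the other 6825 genes in grey. Eif3m and A1bg lie at the lower edge at -3.93 and -5.66, and the vomeronasal receptor genes Vmn2r4 and Vmn2r3 at the top at 9.68 and 9.34.

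The clearest group among the rises was the messages of the cytosolic ribosome. For the large subunit, 33 of 42 genes rose and none fell (median change 1.17 on the log2 scale), and for the small subunit 22 of 29 rose and none fell (median 1.23), against the 5.96% of all genes that rose. Summed over all 47 listed large-subunit genes, those below 5 CPM included, the level was 2189, 2201, 4849 and 5870 CPM. Summed likewise, the 32 listed small-subunit genes held 1568, 1857, 4122 and 4826 CPM. Both treated libraries thus held more than both controls in either subunit. Leaving out control 1, control 2, Eif3m 1 and Eif3m 2 in turn gave 35, 33, 26 and 9 large-subunit rises and 25, 24, 14 and 12 small-subunit rises, with medians between 0.991 and 1.34.

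Rpl12, a component of the stalk base that recruits translation factors, showed the largest rise of a ribosomal protein, from 71.0 and 57.9 CPM in the controls to 225 and 386 CPM. The fold was 4.73 (log2 change 2.24, SE 0.27, edgeR adjusted p = 4.2e-06). Rps6, the small-subunit protein that is phosphorylated downstream of mTORC1, was at 121, 141, 447 and 484 CPM (log2 change 1.82, SE 0.24, edgeR adjusted p = 1.6e-05). Neither gene's groups overlapped, although the Eif3m libraries differed more from each other for Rpl12 than for Rps6. Rps12 (21.6, 16.1, 63.2 and 85.9 CPM, log2 change 1.97, SE 0.26, edgeR adjusted p = 1.8e-05) rose with its near-identical copy Rps12l2 (2.00), which could share its reads. Rpl23 (1.85), Rpl36a (1.68), Rps3a1 (1.66), Rpl39 (1.64) and Rps15a (1.63) rose by similar amounts on the log2 scale. Rpl13a (1.50) also rose, and lost its call without Eif3m 2 (edgeR adjusted p = 0.062). Members that did not pass included Rps18 (1.21, edgeR adjusted p = 0.052), Rpl27 (0.58, 0.21) and Rps3 (0.54, 0.21), all of them positive.

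The start sites of some of these genes are shown from RefSeq's GRCm38.p6 promoters, since the TOP tract is a feature of the transcript start. Each line gives 30 bases, from 10 before to 20 after the annotated start, with the longest unbroken run of C and T in capitals, for 4 ribosomal protein genes and 4 snoRNA host genes that rose. The runs do not all begin at the annotated start or with a C, and that of Gas5 has 6 bases.
Rps6: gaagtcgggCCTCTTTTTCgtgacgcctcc
Rps12: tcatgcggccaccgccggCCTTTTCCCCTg
Rpl12: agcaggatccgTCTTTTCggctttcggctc
Rpl13a: cctgcgacaagaCCTCCTCCTTTCCCaggc
Gas5: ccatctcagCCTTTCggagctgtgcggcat
Snhg1: tcttgtcggcctcaTTTTTCCTTgttcggg
Snhg5: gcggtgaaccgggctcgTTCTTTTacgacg
Snhg12: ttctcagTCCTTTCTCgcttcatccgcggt
These windows lie at chr4:86857348-86857377 on the minus strand, chr10:23787190-23787219 on the minus strand, chr2:32961702-32961731 on the plus strand, chr7:45128726-45128755 on the minus strand, chr1:161035156-161035185 on the plus strand (the one with the longer run of 2 annotated starts), chr19:8723477-8723506 on the plus strand, chr9:88522878-88522907 on the minus strand and chr4:132308668-132308697 on the plus strand. A run of at least 7 C or T in this window was present in 17 of 31 large-subunit and 11 of 21 small-subunit genes with a promoter in the table, in 3 of 5 snoRNA host genes and in 20.5% of all 27025 genes with one. It was found in 81 of 247 rises (32.8%) and in 56 of 265 falls (21.1%). Rpl23 and Rps3a1 rose with no such run in the window.
Rpl23: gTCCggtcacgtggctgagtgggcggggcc
Rps3a1: gCCggaagggcgaaagagcaagggtcacgt
These 2 windows lie at chr11:97782420-97782449 on the minus strand and chr3:86142649-86142678 on the minus strand, and their longest runs are 3 and 2 bases.

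Host genes of snoRNAs rose as well. Of 6 at 5 CPM or more, 4 rose and none fell (median 2.02 on the log2 scale), and 2 of the 6 had a control mean below 5 CPM. Gas5, whose spliced transcript is a long noncoding RNA, was at 17.6, 25.6, 154 and 169 CPM (log2 change 2.90, SE 0.27, edgeR adjusted p = 3.7e-08). Snhg1 was at 2.79, 7.38, 44.9 and 50.7 CPM (log2 change 3.23, SE 0.36, edgeR adjusted p = 1.4e-05) and Snhg5 at 4.45, 4.53, 25.2 and 38.1 CPM (log2 change 2.80, SE 0.32, edgeR adjusted p = 1.7e-06). In each of these 3 genes the lower Eif3m library was well above the higher control. Snhg12 (4.65, 11.9, 20.1 and 18.8 CPM) rose by 1.24 and was not called without control 1, Eif3m 1 or Eif3m 2 (edgeR adjusted p = 0.12, 0.2 and 0.14). Snhg6 (1.03, edgeR adjusted p = 0.12) and Snhg17 (-0.03, 0.98) did not pass the test.

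Among elongation factors and other known TOP messages, a list that also holds Gas5 and Snhg1, 14 of 19 rose and none fell (median 1.02; 15, 14, 7 and 7 rises with the libraries left out in the same order). Eef1b2, the exchange factor of eEF1A, was at 85.7, 93.1, 305 and 327 CPM (log2 change 1.82, SE 0.24, edgeR adjusted p = 1.6e-05). Pabpc4, a poly(A)-binding protein, rose by 1.73. The most abundant members, Eef1a1 (5734, 3716, 8003 and 8483 CPM, 0.80, edgeR adjusted p = 0.073) and Eef2 (0.42, 0.56), did not pass. Among 88 ribosome assembly factors 18 rose and none fell (median 0.579), with 22, 42, 8 and 4 rises in the leave-one-out fits. The box C/D snoRNP proteins Nop56 (10.9, 13.9, 42.0 and 41.1 CPM, log2 change 1.74, SE 0.27, edgeR adjusted p = 0.0001) and Nop58 (1.47), the nucleolar chaperone Npm1 (74.4, 96.2, 235 and 338 CPM, log2 change 1.75, SE 0.26, edgeR adjusted p = 5.7e-05), nucleolin Ncl (1.27; edgeR adjusted p = 0.065 without Eif3m 2) and Mrto4 (1.60; 0.071 without Eif3m 1) were the largest of these. Mitochondrial ribosomal proteins gave 2 rises among 48 genes, a share near that of all genes.

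Initiation factors outside eIF3 gave 7 rises and 1 fall among 29 genes (median 0.448; 7, 8, 2 and 2 rises with the libraries left out in order). Eif4g2, a scaffold that lacks the eIF4E binding site, was at 669.7, 919, 2223 and 1934 CPM (log2 change 1.39, SE 0.26, edgeR adjusted p = 0.00093), and Eif5, which triggers GTP hydrolysis by eIF2, at 145, 193, 383 and 456 CPM (log2 change 1.31, SE 0.25, edgeR adjusted p = 0.00099). The recycling factor Denr (1.00; edgeR adjusted p = 0.05 without Eif3m 1 and 0.4 without Eif3m 2) and the eIF2B subunit Eif2b3 (0.93; 0.32 and 0.2) rose less. The single fall was Eif4ebp2 (-1.20), a repressor of eIF4E, which was not called without control 1, Eif3m 1 or Eif3m 2 (edgeR adjusted p = 0.082, 0.34 and 0.1). None of the 19 aminoacyl-tRNA synthetases passed edgeR's test (median 0.248), and none of 38 proteasome genes did (median 0.0137). The synthetase median was 0.481 without control 1, with 4 rises, and -0.203 without control 2, with 3 rises and 3 falls, and the proteasome median lay between -0.0298 and 0.0239 with each library left out. At an unadjusted p below 0.05, 8 synthetases and 3 proteasome genes passed, and DESeq2 called 2 and 0.

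Stress response genes were measured only in part, since 11 of 34 listed targets of ATF4 and CHOP, the transcription factors of the integrated stress response, reached 5 CPM. Of these, 2 rose and 2 fell, against 5.96% and 4.79% of all genes. Cebpg, a partner of ATF4, rose (11.7, 8.09, 22.9 and 22.5 CPM, 1.19), as did the alanine aminotransferase Gpt2 (1.06), while Shmt2, of mitochondrial serine metabolism, fell (16.3, 6.58, 3.05 and 3.44 CPM, -1.84) with Herpud1 (-1.14), of endoplasmic reticulum (ER) protein disposal. Calls of Cebpg and Gpt2 were lost without Eif3m 1 (edgeR adjusted p = 0.18 and 0.17) or Eif3m 2 (0.16 and 0.071), that of Shmt2 without control 1 (0.099) or Eif3m 1 (0.098), and that of Herpud1 without Eif3m 2 (0.25). ER folding genes gave 4 falls and no rise among 38 (median -0.0459, and 0.0104 without control 2; 3, 9, 3 and 1 falls with the libraries left out), led by the co-chaperone Dnajb9 (139, 194, 58.1 and 42.8 CPM, log2 change -1.72, SE 0.26, edgeR adjusted p = 7.9e-05). The ER stress kinase gene Eif2ak3 fell by 1.47 on the log2 scale and was not called without Eif3m 2 (edgeR adjusted p = 0.18), and the most abundant ER chaperone, Hspa5, differed by -0.05 (0.95).

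Of 14 measured p53 targets, 4 rose and none fell (median 0.266; 5, 5, 3 and 1 rises with the libraries left out). Trp53inp1, a p53 cofactor and autophagy protein, was at 6.19, 3.35, 29.2 and 31.2 CPM (log2 change 2.66, SE 0.33, edgeR adjusted p = 5.6e-06). Ccng1 (1.20), Plk2 (1.26) and Mdm2 (0.93), the ubiquitin ligase that degrades p53, rose less, and all 3 calls were lost without Eif3m 2 (edgeR adjusted p = 0.18, 0.094 and 0.7). Mdm2 was also not called without Eif3m 1 (0.09). Gadd45a, a growth arrest gene that responds to DNA damage, went from 0.809 and 0.754 CPM in the controls to 10.2 and 11.2 CPM (log2 change 3.76, SE 0.45, edgeR adjusted p = 3.4e-06). Like Trp53inp1, it reached 5 CPM only through the Eif3m libraries. Gadd45a was the only rise among 7 measured growth arrest and G1 regulators, none of which fell (median -0.102). Of all genes, 5.96% rose and 4.79% fell.

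Several of the largest rises belong to no common pathway. Nox4, a hydrogen peroxide-producing NADPH oxidase, was at 1.21, 1.47, 15.7 and 17.0 CPM (log2 change 3.60, SE 0.39, edgeR adjusted p = 9.1e-07). Arhgef2, a microtubule-bound activator of RhoA, was at 4.21, 1.76, 25.7 and 32.4 CPM (log2 change 3.27, SE 0.37, edgeR adjusted p = 2.2e-06), and Ifrd1, a transcriptional coregulator, at 29.2, 40.3, 268 and 252 CPM (log2 change 2.90, SE 0.26, edgeR adjusted p = 2.5e-08). Nox4 and Arhgef2 reached 5 CPM only through the Eif3m libraries. In all 3 genes the groups were far apart, while the controls of Arhgef2 differed by a larger ratio than its Eif3m libraries. Serpina7, thyroxine-binding globulin, was at 39.4, 54.7, 261 and 236 CPM (log2 change 2.40, SE 0.26, edgeR adjusted p = 7.2e-07), Dynll1, a dynein light chain, at 12.5, 21.5, 81.3 and 73.0 CPM (2.18), and the lysosomal protease Ctsl at 330.0, 336, 1123 and 1209 CPM (log2 change 1.81, SE 0.25, edgeR adjusted p = 2.1e-05). The list that holds Ctsl, autophagy and lysosome genes, gave 2 rises and 5 falls among 37 (median -0.442), where 5.96% of all genes rose and 4.79% fell. Btbd19 completed the 15 largest rises (2.08) and was not called without Eif3m 2 (edgeR adjusted p = 0.2).

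The vomeronasal receptor genes Vmn2r3 and Vmn2r4, pheromone receptors of the vomeronasal organ with no established role in liver, had the largest changes of all genes of at least 5 CPM. Vmn2r3 was at 0.243, 0.0838, 95.4 and 127.8 CPM, that is 6 and 2 counts in the controls against 1846 and 705 in the Eif3m libraries (log2 change 9.34, SE 0.42, edgeR adjusted p = 1.8e-14). Vmn2r4 had 1 and 0 counts in the controls and 331 and 157 in the Eif3m libraries, a ratio of 954 with a 95% counting interval from 170 to 37700 that covers counting error only. Both genes were near the limit of detection in every control and clearly present in every Eif3m library. They are neighbouring members of one receptor family, so reads may be shared between them, and each reached 5 CPM only through the Eif3m libraries. In the day 9 libraries Vmn2r3 was listed at 0, 0 and 0 CPM in the controls and at 0.157, 2.24 and 0.477 CPM with Eif3m siRNA.

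**Figure D2:**
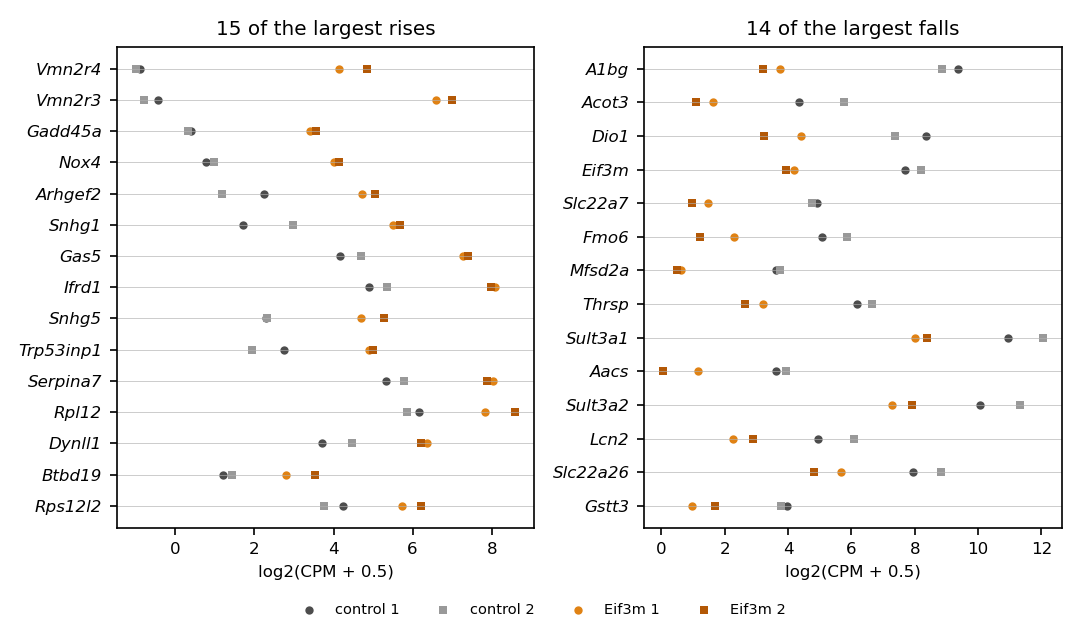
Levels in the 4 day 13 libraries, as log2(CPM + 0.5) on the x axis, for the 15 largest rises (left) and 14 of the 15 largest falls (right) among called genes with a regular symbol, with controls in grey and Eif3m libraries in orange. In all 29 genes drawn the Eif3m points lie on one side of the control points. The drawn gap is widest for Vmn2r3 among the rises and for A1bg among the falls. The largest fitted log2 changes, which are not distances in this plot, are 9.68 for Vmn2r4 and -5.66 for A1bg.

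Genes of fatty acid and triglyceride synthesis fell together: 13 of 27 fell and none rose (median -0.975), against the 4.79% of all genes that fell. Of the 27, 4 reached 5 CPM only through the controls. Thrsp, a lipogenic nuclear protein driven by thyroid hormone and insulin, was at 71.2, 99.7, 8.69 and 5.80 CPM (log2 change -3.51, SE 0.29, edgeR adjusted p = 1.1e-08). Fasn, fatty acid synthase, was at 54.3, 39.99, 9.10 and 6.16 CPM (log2 change -2.58, SE 0.30, edgeR adjusted p = 2e-06), and Acacb, the mitochondrial acetyl-CoA carboxylase, at 12.5, 9.64, 2.27 and 1.09 CPM (log2 change -2.59, SE 0.43, edgeR adjusted p = 0.00026). For each of these the higher Eif3m library was below the lower control. Acss2 (-1.72), which makes acetyl-CoA from acetate, and the desaturase Scd2 (-2.30) fell as well. Aacs, acetoacetyl-CoA synthetase, was at 11.9, 14.9, 1.76 and 0.544 CPM (log2 change -3.31, SE 0.45, edgeR adjusted p = 2.1e-05). The transcription factor gene Srebf1, named after its values were seen, had means of 80.9 and 27.05 CPM (log2 change -1.58, edgeR adjusted p = 0.00024). The NADPH-producing malic enzyme gene Me1 was at 266, 272, 257 and 258 CPM (-0.06, edgeR adjusted p = 0.92) and did not pass. The falls numbered 12, 16, 10 and 8 with control 1, control 2, Eif3m 1 and Eif3m 2 left out.

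Cholesterol synthesis gave 5 falls and no rise among 20 genes (median -0.725), with 8, 9, 9 and 2 falls in the leave-one-out fits. The last step of the pathway was represented by Dhcr7 (40.5, 30.3, 15.8 and 9.79 CPM, log2 change -1.43, SE 0.29, edgeR adjusted p = 0.0022), the early steps by Hmgcs1 (282, 317, 183 and 82.1 CPM, -1.17) and Fdps (-1.01). The second Eif3m library was lower than the first for Dhcr7 and Hmgcs1, and without it Dhcr7, Hmgcs1, Fdps and Tm7sf2 (-1.28) were not called (edgeR adjusted p = 0.14, 0.52, 0.5 and 0.23). Tm7sf2 was also lost without control 1 (0.093). Cyp51 (171, 199, 224 and 101 CPM) had 1 Eif3m library above and 1 below the controls. The sequence CCAAT, the motif bound by the factor NF-Y, was present on either strand from 250 bases before to 50 after the start in 12 of 13 cholesterol genes with a promoter in the table and in 15 of 21 fatty acid synthesis genes, against 41.1% of all genes with one. It was also present in 8 of 9 antigen presentation genes. Among all falls the share was 44.9%, and among all rises 43.3%.

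Fatty acid oxidation genes gave 9 falls and 1 rise among 36 (median -0.372). Of the 36, 6 reached 5 CPM only through the controls, which favours falls. The median was -0.262, -0.43, -0.489 and -0.23 without control 1, control 2, Eif3m 1 and Eif3m 2. The acyl-CoA thioesterase Acot3 was at 19.7, 54.2, 2.59 and 1.63 CPM (log2 change -4.03, SE 0.47, edgeR adjusted p = 7.2e-05), and its family member Acot1 fell by 2.20 (edgeR adjusted p = 0.14 without Eif3m 1). The 1 rise was Cyp4a14, a fatty acid hydroxylase and PPAR-alpha target (22.4, 22.8, 58.9 and 89.5 CPM, log2 change 1.71, SE 0.26, edgeR adjusted p = 9e-05). Apolipoprotein and lipid transfer genes gave 7 falls and no rise among 20 (median -0.719). Their median was -0.311, -1.05, -0.674 and -0.869 with the libraries left out in the same order. Apoa5, a plasma triglyceride regulator, was at 98.9, 46.6, 13.6 and 25.6 CPM (-1.93), and Apoc3, an inhibitor of lipoprotein lipase, at 106, 94.0, 30.2 and 43.3 CPM (-1.46; edgeR adjusted p = 0.061 without Eif3m 1). Hepatic lipase Lipc was at 257, 139, 72.6 and 71.8 CPM (log2 change -1.46, SE 0.27, edgeR adjusted p = 0.00093). Apob, the structural protein of secreted lipoproteins, differed by 0.13 (edgeR adjusted p = 0.84).

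Uptake and disposal genes of the hepatocyte fell in part, where 4.79% of all genes fell. Among transporters 10 of 33 fell and none rose (median -0.576; 12, 13, 6 and 4 falls with the libraries left out). Slc22a7, an organic anion transporter, was at 29.9, 26.4, 2.27 and 1.45 CPM (log2 change -3.82, SE 0.36, edgeR adjusted p = 6.6e-08). Abcc3, the basolateral conjugate exporter (94.5, 99.6, 28.6 and 38.8 CPM, -1.54), and Slco2b1 (14.8, 14.7, 3.52 and 3.62 CPM, -2.05) fell less. The bile acid importer Slc10a1 (-1.37) was not called without Eif3m 2 (edgeR adjusted p = 0.38), and Slco1a1 was at 1577, 1463, 1885 and 1292 CPM, with overlapping groups. Conjugation enzymes gave 8 falls and no rise among 47 (median -0.328; 11, 14, 4 and 4 falls), including Gstt1 (40.7, 23.3, 6.31 and 7.07 CPM, log2 change -2.27, SE 0.32, edgeR adjusted p = 3.5e-05), Gstt3 (-2.89) and the bilirubin-conjugating Ugt1a1 (495, 505, 196 and 155 CPM, log2 change -1.51, SE 0.24, edgeR adjusted p = 0.00017).

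Cytochrome P450 genes of families 1 to 3 gave 6 falls and 2 rises among 45 (median -0.168). Of all genes 4.79% fell and 5.96% rose, so the share of P450 rises was near that of all genes. Without control 1, control 2, Eif3m 1 and Eif3m 2 the falls numbered 8, 8, 2 and 0. Cyp2c37 (1064, 1308, 521 and 425 CPM, -1.33), Cyp2c50 (-1.26), and the near-identical Cyp2a4 and Cyp2a5 (-1.11 and -1.13) fell. All 4 calls were lost without Eif3m 2 (edgeR adjusted p = 0.093, 0.14, 0.17 and 0.15), and those of Cyp2a4 and Cyp2a5 also without Eif3m 1 (0.078 and 0.071). Cyp3a11, the most abundant P450, was at 14865, 14044, 14855 and 12290.2 CPM (-0.09, edgeR adjusted p = 0.89). Bile acid synthesis enzymes gave 4 falls among 15 (median -0.659; 6, 6, 4 and 1 falls), with Cyp27a1, of the acidic pathway, at 254, 189.9, 102 and 67.8 CPM (-1.38; 0.11 without Eif3m 2).

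Genes of the pericentral zone of the liver lobule gave 9 falls and no rise among 24 (median -0.652; 10, 10, 2 and 1 falls with the libraries left out), and periportal genes 5 falls and 1 rise among 29 (median -0.253; 4, 9, 1 and 2 falls). The pericentral list holds several P450 and conjugation genes already described. Of all genes 4.79% fell and 5.96% rose, so the 1 periportal rise among 29 was near the share of all genes. The periportal call with the largest change was Mfsd2a, a lysophospholipid transporter, at 11.9, 13.0, 1.03 and 0.906 CPM (log2 change -3.64, SE 0.44, edgeR adjusted p = 4.9e-06). Among selenoproteins 3 of 14 fell (1, 5, 2 and 2 with the libraries left out), led by Dio1, the hepatic deiodinase that activates thyroid hormone, at 328, 167, 21.0 and 9.06 CPM (log2 change -3.99, SE 0.45, edgeR adjusted p = 0.0005). Albumin was at 234862, 206193, 158559 and 118405 CPM (-0.67, edgeR adjusted p = 0.18), with both Eif3m libraries below both controls but without passing the test.

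A1bg, a plasma glycoprotein that female mouse livers express more than male ones, had the largest fall of all, at 657, 464, 13.0 and 8.70 CPM. The change was 50.4-fold (log2 change -5.66, SE 0.31, edgeR adjusted p = 1.5e-12). On the list of 40 measured female-biased liver genes, 10 fell and 1 rose (median -0.41), against 4.79% and 5.96% of all genes. The sulfotransferase Sult3a1 was at 1988, 4235, 259 and 332 CPM (log2 change -3.40, SE 0.33, edgeR adjusted p = 7.6e-07). The anion transporter Slc22a26 was at 247, 458, 50.6 and 27.7 CPM (log2 change -3.15, SE 0.33, edgeR adjusted p = 7.4e-06). For A1bg, Sult3a1 and Slc22a26 the controls differed from each other and the Eif3m libraries lay well below both. Sult3a2 (-3.20) and Fmo6 (-3.71), which are not on the list, were also among the 15 largest falls. Sult3a1 and Sult3a2 resemble each other in sequence, and their reads may be shared. The rise was Cyp4a14 (1.71), and the abundant Cyp3a41a (3374, 5638, 4245 and 3280.4 CPM, -0.26, edgeR adjusted p = 0.66) did not pass.

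Male-biased liver genes gave 3 rises and no fall among 25 (median 0.113), against 5.96% and 4.79% of all genes. Of the rises, Bcl6 and Cyp2u1 reached 5 CPM only through the Eif3m libraries. The median was 0.533, 0.0188, -0.0461 and 0.319 without control 1, control 2, Eif3m 1 and Eif3m 2, so that its sign rests on Eif3m 1. Bcl6, a transcriptional repressor that is higher in male liver, was at 2.75, 2.05, 8.32 and 8.34 CPM (log2 change 1.79, SE 0.41, edgeR adjusted p = 0.0067). C6, of the terminal complement complex, was at 15.9, 19.1, 50.05 and 46.9 CPM (log2 change 1.47, SE 0.26, edgeR adjusted p = 0.00044), and Cyp2u1 at 2.31, 3.60, 8.69 and 7.61 CPM (1.47). The abundant major urinary protein genes Mup1 and Mup2 differed by 0.11 and 0.11 and their groups overlapped. They belong to one gene family and may share reads, so they are not 2 separate observations. Bcl6 and Cyp2u1 lost their calls without Eif3m 1 (edgeR adjusted p = 0.12 and 0.33) and without Eif3m 2 (0.097 and 0.19), and Bcl6 also in the fit of all 10 RNA libraries (0.16). Socs2, a feedback inhibitor induced by growth hormone, was at 36.4, 30.6, 12.4 and 5.07 CPM (log2 change -1.86, SE 0.33, edgeR adjusted p = 0.00064), and Igfals, the growth hormone-dependent carrier of IGF1, at 23.4, 14.6, 6.00 and 5.44 CPM (log2 change -1.72, SE 0.34, edgeR adjusted p = 0.0018). Growth hormone receptor Ghr was at 589.6, 829.9, 442 and 377 CPM (-0.79, edgeR adjusted p = 0.052) and did not pass. Counts of female-biased falls were 19, 13, 9 and 9 and of male-biased rises 7, 5, 1 and 3 with the libraries left out, beside 2, 3, 0 and 0 male-biased falls. The sequence TTC, any 3 bases and GAA, the motif bound by STAT factors, was present from 250 bases before to 50 after the start in 5 of 30 female-biased genes with a promoter in the table, in 4 of 13 interferon genes, in 14.7% of all falls and in 8.1% of all rises, against 9.55% of all genes with a promoter. Since the sex of the animals is not in the labels, transcripts of both sex chromosomes are given. Xist, which is made from the inactive X chromosome, was at 566, 809, 1009 and 1067 CPM and differed by 0.59 (edgeR adjusted p = 0.17). Ddx3y, a helicase gene of the Y chromosome, was at 10.03, 15.1, 17.8 and 21.9 CPM and differed by 0.65 (edgeR adjusted p = 0.22; named after its values were seen). Both were counted in all 4 libraries, while at day 9 Ddx3y was between 0.0377 and 0.302 CPM and Xist between 206 and 635 CPM. The part of animal sex in these results was not tested.

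**Figure D3:**
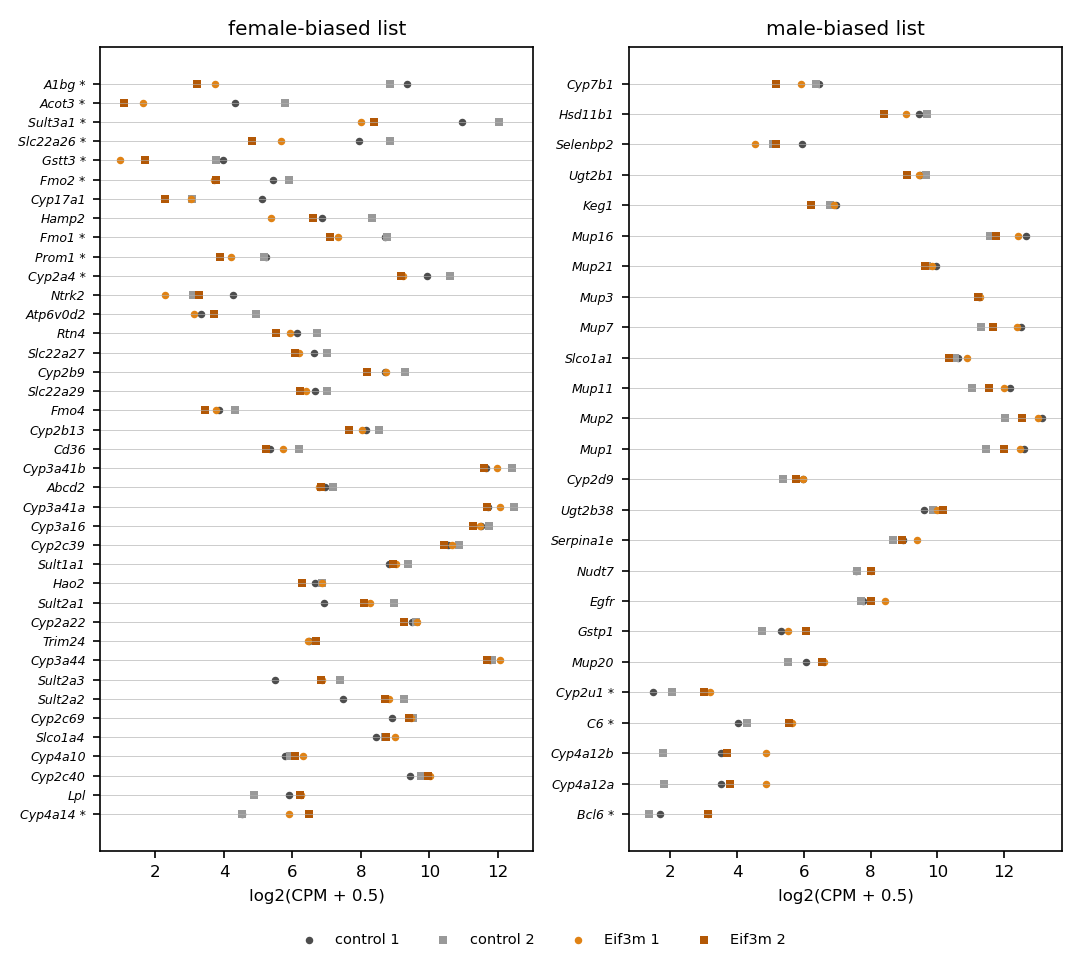
Levels as log2(CPM + 0.5), x axis, in the 4 day 13 libraries for 39 of the 40 measured female-biased genes (left) and the 25 male-biased genes (right), ordered by change, with an asterisk at called genes. The strongest falls drawn, A1bg (-5.66), Acot3 (-4.03) and Sult3a1 (-3.40), sit at the top of the left panel with orange points far left of the grey ones, and the groups did not overlap in 23 of 39 female-biased and 13 of 25 male-biased genes, shares near the 56.3% of all genes.

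Acute phase genes, the plasma proteins that the liver makes more of in inflammation, gave 7 falls and 1 rise among 28 (median -0.623; 11, 14, 7 and 6 falls with the libraries left out). Lcn2, an iron-siderophore binding protein, was at 30.7, 67.7, 4.34 and 6.89 CPM (log2 change -3.20, SE 0.37, edgeR adjusted p = 2e-05). The orosomucoid genes Orm1 (259.7, 455, 131 and 127 CPM, -1.47), Orm2 (138, 234, 49.5 and 53.3 CPM, -1.86) and Orm3 (53.4, 80.2, 18.2 and 19.9 CPM, -1.81) fell together, although reads could be shared among these close copies. Control 2 was above control 1 for Lcn2 and all 3 orosomucoid genes. Haptoglobin Hp, at 665, 414, 233 and 194 CPM (-1.34), lost its call without Eif3m 2 (edgeR adjusted p = 0.072). Serum amyloid A1 (Saa1), named after its values were seen, had means of 74.6 and 3.31 CPM, and its large log2 change of -4.58 (SE 1.57) did not pass the test (edgeR adjusted p = 0.32). The 1 rise was hemopexin (Hpx), the carrier of free heme, with means of 973 and 1921 CPM (log2 change 0.98, edgeR adjusted p = 0.013; named after its values were seen). Its call depended on Eif3m 1. The share of 1 rise among 28 acute phase genes was near that of all genes (5.96%), while 4.79% of all genes fell. Of the 28, 3 reached 5 CPM only through the controls, which favours falls.

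Markers of Kupffer cells, macrophages and stellate cells were among the falls. In these bulk libraries, fewer cells of a type and less RNA per cell cannot be told apart. For Kupffer cells, the resident macrophages, 4 of 7 genes fell and none rose (median -1.07; 5, 3, 1 and 2 falls with the libraries left out), and the summed level was 637, 779, 408 and 394 CPM. That sum covers all 17 listed genes, those below 5 CPM included. Clec4f, a lectin specific to Kupffer cells, was at 61.2, 108, 20.1 and 18.8 CPM (log2 change -2.11, SE 0.28, edgeR adjusted p = 1.6e-05). Vsig4 (13.7, 31.0, 6.51 and 8.70 CPM, -1.58), a complement receptor, lost its call without control 2 or Eif3m 1 (edgeR adjusted p = 0.074 and 0.1), while Msr1 was at 27.9, 32.1, 30.3 and 25.2 CPM, with overlapping groups. For monocytes and macrophages 7 of 13 fell (median -0.815; 6, 8, 3 and 0 falls), with Csf1r, the receptor of the macrophage growth factor, at 43.2, 30.01, 15.8 and 9.42 CPM (-1.50; 0.11 without Eif3m 2). Stellate cell and matrix genes gave 4 falls among 14 (median -0.667; 3, 9, 2 and 2 falls), including the collagen gene Col1a2 at 34.6, 19.1, 8.58 and 7.43 CPM (log2 change -1.73, SE 0.32, edgeR adjusted p = 0.00095). Sinusoidal endothelial markers gave 1 fall among 19, a share near the 4.79% of all genes (median -0.441; 4, 4, 1 and 0 falls), the cadherin Cdh5 (-1.43; 0.079 without Eif3m 2). Of the 13 monocyte and macrophage genes, 3 reached 5 CPM only through the controls, which favours falls. Only 2 of 25 lymphocyte and neutrophil markers and 5 of 20 cholangiocyte markers reached 5 CPM. The part of cell composition in the other results was not tested.

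Antigen presentation genes gave 5 falls and no rise among 11 (median -0.471; 4, 6, 3 and 2 falls with the libraries left out). The class II gene H2-Aa was at 34.5, 47.4, 15.1 and 14.9 CPM (log2 change -1.45, SE 0.27, edgeR adjusted p = 0.00098), and Tapbp, which loads peptide onto class I molecules, at 17.6, 5.99, 2.79 and 1.99 CPM (log2 change -2.24, SE 0.47, edgeR adjusted p = 0.0039). B2m, the class I light chain, was at 1331, 1948, 1586 and 1237 CPM (-0.22, edgeR adjusted p = 0.71) and its groups overlapped. Interferon-stimulated genes gave 5 falls and no rise among 17 (median -0.755; 8, 5, 5 and 1 falls). Igtp was at 77.9, 94.7, 28.3 and 16.5 CPM (log2 change -1.92, SE 0.27, edgeR adjusted p = 3.9e-05), Irgm1 at 74.6, 113, 45.4 and 26.1 CPM (-1.37) and Iigp1 at 305, 328, 138 and 98.9 CPM (-1.42), which with Ifi47 (-1.53) are GTPases induced by interferon gamma. Usp18 (-1.61), a deubiquitinating enzyme that limits interferon signalling, also fell. Of the 17 interferon genes, 4 reached 5 CPM only through the controls, which favours falls in the count and the median. Of all genes, 4.79% fell. Bst2 (0.29, edgeR adjusted p = 0.56) and Ddx58 (-0.03, 0.97), 2 abundant members, did not pass. Without Eif3m 2, Irgm1, Iigp1, Ifi47 and Usp18 were not called (edgeR adjusted p = 0.19, 0.071, 0.068 and 0.062), and Usp18 was also lost without Eif3m 1 (0.12).

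Promoters of the interferon genes share a repeat that is the core of the interferon-stimulated response element: TTTC followed, after 2 further bases, by another TTTC. It was present on either strand within 250 bases before and 50 after the start in 9 of 13 interferon genes with a promoter in the table, against 3.99% of all genes with one, in 6.79% of the falls and in 6.48% of the rises. The 30 bases around the match, from RefSeq's GRCm38.p6 and with the match or its reverse complement in capitals, are shown for 2 genes that fell and 2 that did not pass.
Igtp: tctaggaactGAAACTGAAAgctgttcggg
Irgm1: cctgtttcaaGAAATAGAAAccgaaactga
Gbp2: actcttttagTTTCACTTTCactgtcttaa
Bst2: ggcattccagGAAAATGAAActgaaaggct
These windows lie at chr11:58199512-58199541 on the plus strand, chr11:48871431-48871460 on the minus strand, chr3:142620594-142620623 on the plus strand and chr8:71537583-71537612 on the minus strand, the last 2 belonging to genes whose RNA did not change by the test. The match describes the sequence only.

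**Figure D4:**
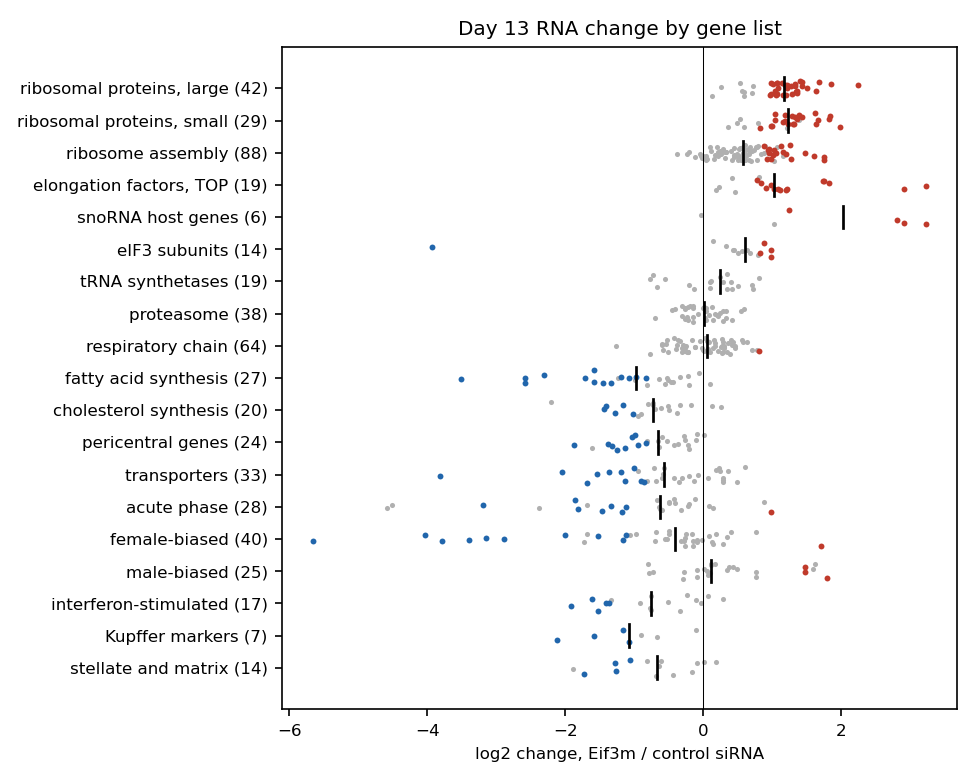
Change with Eif3m siRNA (log2, x axis) for each measured gene of 19 lists, with the number of genes in parentheses, rises in red, falls in blue, uncalled genes in grey and the median as a black bar. The medians of the ribosomal protein lists are 1.17 and 1.23, those of the fatty acid and cholesterol synthesis lists -0.975 and -0.725, and those of the proteasome and the respiratory chain 0.0137 and 0.0585, both near 0.

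Footprint libraries of the same 4 animals give the ribosome-bound fragments of the messages. Of 6412 of the measured genes that could be tested there, 1436 (22.4%) changed by the same test. Because the animals are shared, the footprint values are set beside the RNA values without a test of their difference. For Eif3m the log2 change was -3.93 in RNA and -4.60 in footprints, and for A1bg -5.66 and -5.88. For Fasn it was -2.58 and -2.63, and for Rpl12 2.24 and 2.06, so these 4 genes moved by similar amounts on both scales. Gas5 stood at 2.90 in RNA and 0.65 in footprints, Npm1 at 1.75 and 0.62, and Pabpc4 at 1.73 and 0.42, where the footprint value was the smaller. The footprint changes of Npm1 (SE 0.44, edgeR adjusted p = 0.34) and Pabpc4 (SE 0.24, edgeR adjusted p = 0.24) did not pass. The footprint value was the larger for Snhg1 (3.23 and 3.62), Snhg5 (2.80 and 4.34) and Snhg12 (1.24 and 2.87). Control footprints were 0.57 and 3.20 CPM for Snhg1, 0 and 0.53 for Snhg5 and 1.14 and 0.53 for Snhg12. The snoRNA host median was 2.02 over 6 genes in RNA and 3.25 over 4 in footprints. Ifrd1 stood at 2.90 and 4.67 and Bcl6 at 1.79 and 4.55, where the footprint value was the larger, from control footprints of 4 and 3 counts for Ifrd1 and 4 and 2 for Bcl6. By list, the median in RNA and footprints was 1.17 and 1.21 for the large ribosomal subunit, 1.23 and 1.26 for the small subunit, 1.02 and 0.46 for elongation factors and TOP messages, and -0.975 and -0.724 for fatty acid synthesis.

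At day 9, in other animals whose libraries were made with another kit, the siRNA effect was compared in 1 fit of all 10 RNA libraries. Of the same 7647 genes, 634 (8.29%) changed at day 9. Of the 456 day 13 rises, 439 were positive at day 9 (96.3%, against 51.4% of all genes), and 153 of them passed the test as rises. Of the 366 falls, 321 were negative at day 9 (87.7%, against 48.5% of all genes), and 135 passed as falls. The opposite call was made for 1 rise and 4 falls. Across genes the 2 effects correlated with r = 0.573 and rho = 0.547, a description over genes that are not independent replicates.

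The effect differed between the days in 123 of 7647 genes (1.61%), 42 of them higher and 81 lower at day 13. Day, library kit and batch of animals cannot be told apart in this difference. The Y chromosome gene Ddx3y was also lower in every day 9 library, as given above, so its level cannot be told apart from day. The part of animal sex was not tested. Ribosomal protein genes were among those higher at day 13: in the joint fit Rps6 stood at 0.57 at day 9 and 1.72 at day 13, and Rpl12 at 0.87 and 2.12. The large-subunit median was 0.428 at day 9 and 1.07 at day 13, with 11 called at day 9. Eif3m stood at -3.27 and -4.01, a difference that did not pass (edgeR adjusted p = 0.14). A1bg stood at -0.71 and -5.73, Mfsd2a at 0.01 and -3.70, and Slc22a7 at -0.84 and -3.86, so that these falls were small at day 9 in this fit. Fatty acid synthesis had a median of -0.489 at day 9, with Thrsp at -2.06, Fasn at -1.81 and Acss2 at -2.08, and none of its genes differed between the days by the test. The number of differences was 0 without day 13 Eif3m 2, 366 without day 13 control 1, 1173 without day 13 control 2 and 91 without day 13 Eif3m 1, and between 10 and 57 with 1 day 9 library left out.

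**Figure D5:**
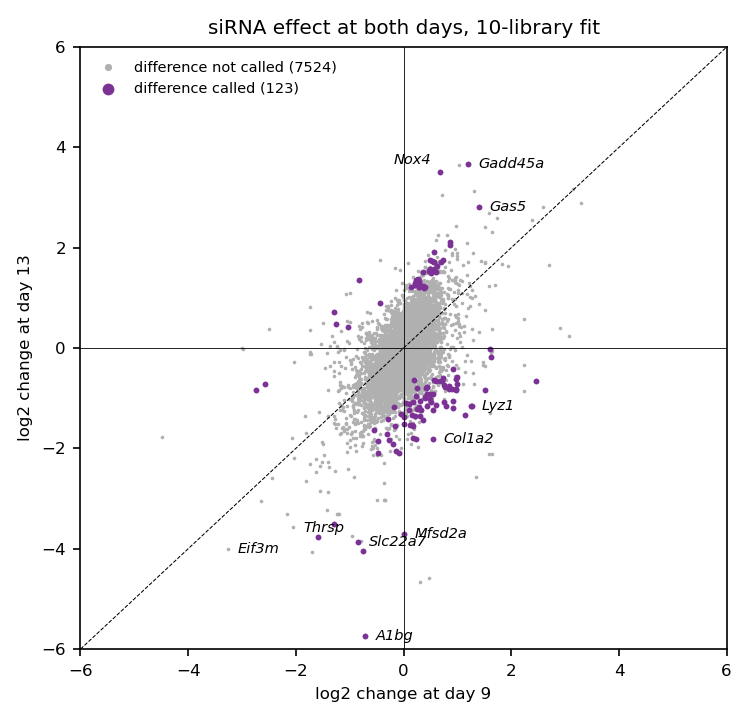
Log2 change with Eif3m siRNA at day 9 (x axis) and day 13 (y axis) for the genes of at least 5 CPM, from 1 fit of the 10 RNA libraries, with the 123 genes whose change differed between the days in purple and the line of equal change dashed. Eif3m lies at -3.27 and -4.01, A1bg at -0.707 and -5.73, and 3 genes, Vmn2r3 and Vmn2r4 among them, fall outside the axes.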

How the data were processed

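Counts per gene symbol were deposited by the authors as 1 table of 20 libraries. Per the submitters' processing notes cutadapt, Bowtie and Bowtie2 were used. Versions, build and the way reads were assigned to genes were not stated in what was read here. Per the labels' protocols RNA was purified with RNeasy, and day 13 RNA libraries were made with NeoPrep and day 9 libraries with KAPA mRNA capture. The deposited values are estimated counts, many of them multiples of a sixth in tests on the table, and were rounded.

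The 4 day 13 RNA libraries were fitted alone with edgeR 4.0.16 (R 4.3.3; filterByExpr, TMM, robust quasi-likelihood F test, Benjamini-Hochberg over all 13649 genes tested). Calls are adjusted p below 0.05 at a mean of at least 5 CPM. A fit of the 10 RNA libraries gave the day comparison, and a fit of the day 13 footprints the side-by-side values. DESeq2 1.42.0 and other settings were alternatives. The scripts were checked on simulated counts. With 2 libraries per group, each value rests on few animals, and low counts limit the precision.

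Genes were named by rule: every subunit of eIF3, the 15 rises and 15 falls of greatest size whose groups did not overlap, and for each of 58 lists up to 5 called members and the 2 most abundant others. Genes, lists and motifs were chosen with earlier results of these data known. The 4 motifs reported (the pyrimidine run, CCAAT, the TTTC repeat and TTC, 3 bases, GAA) were searched in RefSeq promoters, of which 5443 of the 7647 genes had one. Values of some genes are not reported here; counts over lists include them.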

Additional observations from a re-analysis of the deposited data

Results flagged for a closer look

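Among the named genes, 34 had a siRNA effect that differed between day 13 and day 9 by the test of the difference itself in the fit of 10 RNA libraries (edgeR adjusted p below 0.05). Values in parentheses are the day 13 effect minus the day 9 effect on the log2 scale. In 22 genes the value was negative. Among hepatocyte genes these were A1bg (-5.02), Mfsd2a (-3.71), Dio1 (-3.30), Slc22a7 (-3.02), Sult3a1 (-2.22) and Hp (-1.80), which encode plasma proteins, transporters and enzymes. Another was the interferon-stimulated gene Usp18 (-1.40), which limits interferon signalling. Chaperone and ER stress genes lower at day 13 were Dnajb9 (-1.98), Eif2ak3 (-1.64) and Dnajb1 (-1.22). Genes of macrophages, antigen presentation and iron export were Lyz1 (-2.41), Csf1r (-1.75), H2-Aa (-1.70), Cd74 (-1.67), Ctss (-1.48), Cd5l (-1.47) and Slc40a1 (-1.21). Lyz1, a lysozyme gene, had effects of opposite sign, at 1.25 at day 9 and -1.16 at day 13. Matrix and vessel wall genes were Col1a2 (-2.37), Col3a1 (-1.93), Cdh5 (-1.52), Rgs5 (-1.38) and Igfbp7 (-1.32), and the collagen genes Col1a2 and Col3a1 stood at 0.56 and 0.78 at day 9 and at -1.81 and -1.15 at day 13.

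In 12 genes the value was positive. Genes of ribosomal proteins, translation and ribosome assembly were Rpl12 (1.25), Rpl23 (1.22), Rps6 (1.16), Rpl36a (1.08), Rps3a1 (1.08), Eef1b2 (1.02), Npm1 (1.01) and Mrto4 (1.15). The others were the noncoding snoRNA host gene Gas5 (1.41), the oxidase gene Nox4 (2.84), the growth arrest gene Gadd45a (2.47) and the complement gene C6 (1.12). Without day 13 Eif3m 2 no gene of at least 5 CPM passed this test, and 1286 did at an unadjusted p below 0.05. DESeq2 with all 10 libraries called 517 genes. Day, library kit, batch of animals and the level of Ddx3y RNA cannot be told apart here, and the part of animal sex was not tested.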

How the results depend on the processing

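None of the named called genes changed sign under the 12 alternatives, and 71 of 187 kept their call under all of them. The 822 calls (456 rises, 366 falls) became 834 with DESeq2's size factors, 994 with library totals alone, 904 with DESeq2, 885 without a filter, 751 when only genes of at least 5 CPM were tested, 868 with libraries thinned to the shallowest, and 1818 (774 rises, 1044 falls) in the fit of all 10 RNA libraries, which shares 807 genes with the 822. Leaving out each library gave 255 to 1820 calls, 138 to 991 rises and 117 to 829 falls, lowest without Eif3m 2 and highest without control 2. With an arm of 1 library, that library is assumed to vary like the other group.

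Same-numbered libraries did not deviate together at day 13 (r = -0.0675 between the libraries numbered 1), and at day 9 only the third pair did (r = -0.0618, -0.0253 and 0.238), so the numbers were not taken as pairs. With the replicate number as a replicate block, 845 day 13 genes were called, and 42 differed between the days (4 higher, 38 lower).

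The 123 differences between the days became 143 (73 higher) with DESeq2's size factors, 517 (268 higher, 249 lower) with DESeq2 and 564 (138 higher, 426 lower) without a filter. Leaving out each library gave 0 to 1173 (0 to 399 higher and 0 to 774 lower). The 1436 footprint changes (675 rises, 761 falls) became 1741 rises and 328 falls with library totals alone and 744 (298 rises, 446 falls) with DESeq2, and 745 to 1510 (353 to 680 rises, 392 to 830 falls) with each library left out. In these results the cause of the change was not tested. Depth limits the second Eif3m library, in which 1 count is worth 0.201 CPM, and genes below 5 CPM, a limit that set aside 2384 of the 9195 genes that reach it at day 9.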
